A study of Mus musculus with 6 samples.

Results

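The Wnt genes measured in mouse pancreatic islets were taken from the authors' deposited table by gene symbol: the Wnt ligands, the Frizzled receptors, the co-receptors Lrp5 and Lrp6, the R-spondins with their Lgr receptors and the ligases Rnf43 and Znrf3, the secreted inhibitors of the Sfrp and Dkk families with Wif1, the acyltransferase Porcn, and the cytoplasmic and nuclear effectors Ctnnb1, Axin1, Axin2, Lef1 and the Tcf7 genes. This gave 54 of the 19940 genes in the table. The RNA came from islets that were freed from the pancreas with an enzyme mixture delivered through the bile duct and picked by hand. The samples were 3 from pregnant C57BL6/J mice at gestational day 14.5 and 3 from nonpregnant littermates of the same strain. The age of the mice, and whether a sample came from 1 animal, are not given in the sources used here, and 5 animals in each group are named in the design text. Each gene has 1 mean read count per group, so values of single samples cannot be shown, and every p-value below is the authors' own and not a spread computed here.

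Wnt proteins are secreted lipid-modified ligands. In the canonical branch they bind a Frizzled receptor together with LRP5 or LRP6, which stops the Axin and APC complex from marking beta-catenin for destruction, so that beta-catenin enters the nucleus and works with TCF/LEF factors. Other Wnt ligands act through Frizzled and ROR receptors on cell polarity and calcium without beta-catenin. R-spondins bind LGR receptors and keep the ligases RNF43 and ZNRF3 from removing Frizzled from the cell surface, while SFRP, WIF1 and DKK proteins hold the pathway back. In the pancreas the pathway is known for its part in organ growth, and variants near TCF7L2 are known for their association with type 2 diabetes in humans.

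Of the 54 Wnt genes 4 changed between pregnant and nonpregnant islets, 2 in each direction. The ligand gene Wnt5b and the receptor gene Fzd6 rose 1.72-fold and 1.38-fold, and the R-spondin gene Rspo4 and the ligand gene Wnt2b fell to 0.62 and 0.52 of the nonpregnant value per the authors' deposited table. The 4 genes are 7.41% of the members, against 11.7% of all genes at the same adjusted p under 0.05 per the authors' deposited table. Of the members, 19 had under 10 mean reads, and the 4 are 11.4% of the other 35. Those higher in pregnancy were 2 of 54 beside 7.57% of all genes, and those lower were 2 of 54 beside 4.15%. A share below or near that of all genes is no result about the Wnt genes as a group. The most abundant ligand (Wnt4), beta-catenin (Ctnnb1) and Tcf7l2 did not pass, with ratios of 1.02, 1.02 and 1.06 per the authors' deposited table. In bulk islets, fewer cells that express a gene and less of its RNA per cell cannot be told apart.

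**Figure D1:**
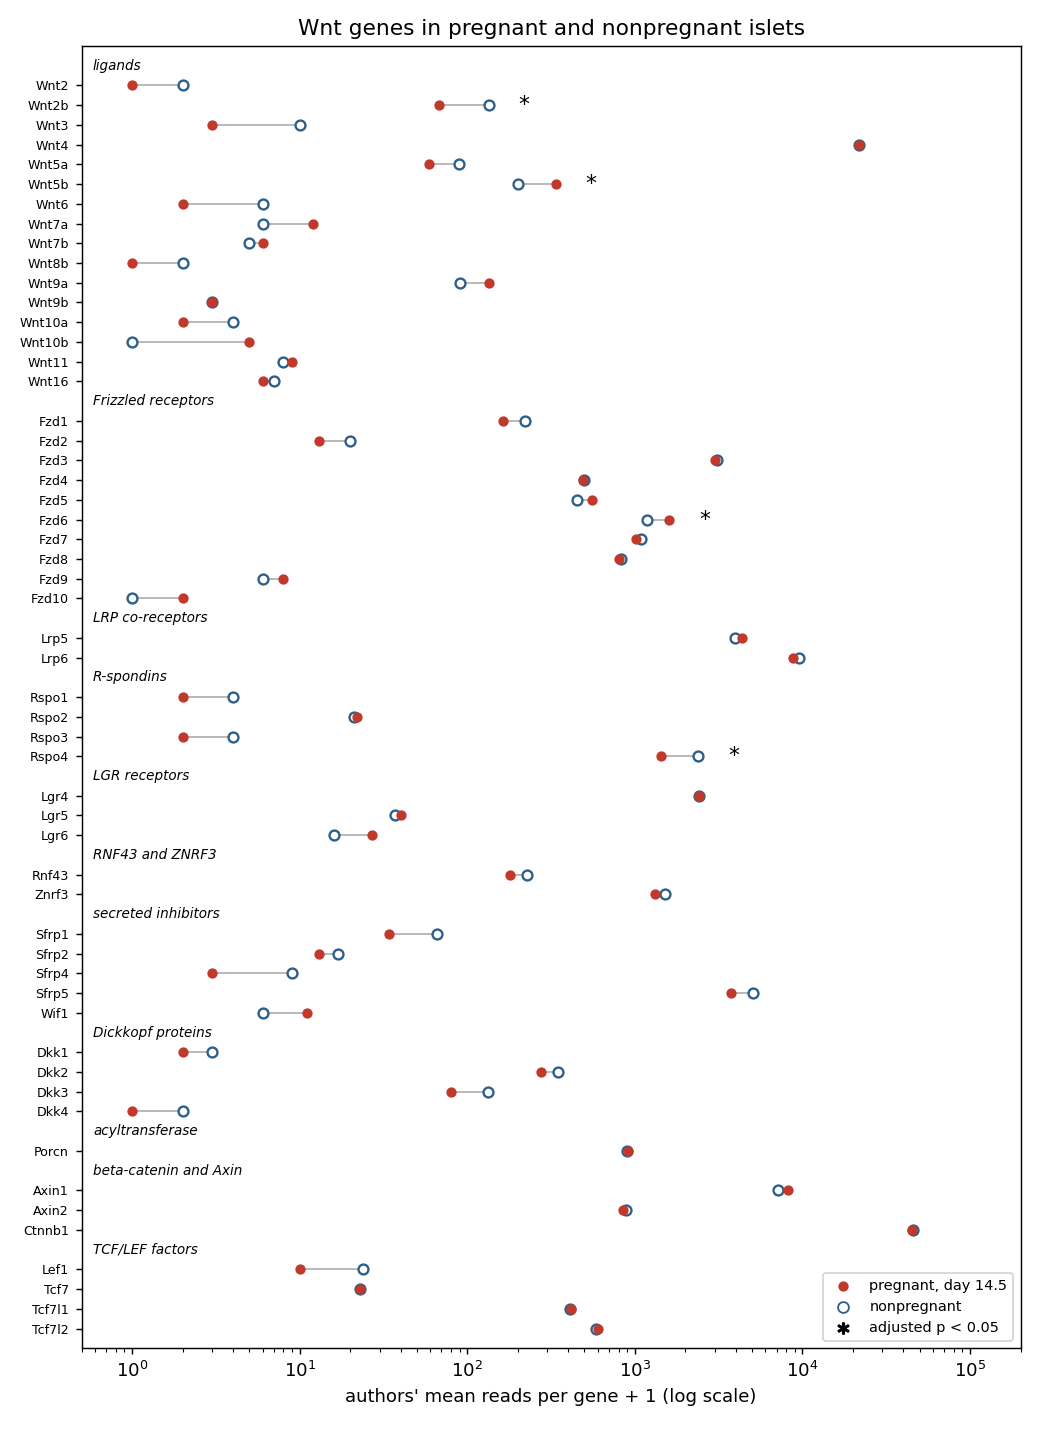
Authors' mean reads plus 1 of each of the 54 Wnt genes on a log axis, in pregnant (filled red) and nonpregnant (open blue) islets, grouped by role. Each point is 1 group mean with no error, and an asterisk marks the 4 genes with an adjusted p under 0.05: Wnt2b, Wnt5b, Fzd6 and Rspo4.

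Among the 16 ligand genes, Wnt4 was by far the most abundant. Wnt4, a ligand known from kidney and female reproductive tract development, had an authors' mean of 21625 reads in pregnant and 21688 reads in nonpregnant islets. Per length this was a level of 58.8 and 61.2 RPKM (mean reads divided by the exon length in kilobases and by the group's summed reads in units of 1000000), or 96.2% and 97.0% of the summed level of all 16 ligands. The deposited log2 ratio of Wnt4 was 0.03, with an adjusted p of 0.98 per the authors' deposited table. The next ligands by level were Wnt5b, Wnt9a and Wnt2b in pregnant islets and Wnt5b, Wnt2b and Wnt9a in nonpregnant islets, none above 2.38% of the summed ligand level.

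Wnt5b, a ligand that mostly acts without beta-catenin, had an authors' mean of 338 reads in pregnant and 201 reads in nonpregnant islets. It rose by 0.78 on the log2 scale per the authors' deposited table (adjusted p = 0.000431). The level of Wnt5b was 1.45 RPKM in pregnant and 0.896 RPKM in nonpregnant islets. Its share of the summed ligand level was 2.38% in pregnant and 1.42% in nonpregnant islets. Wnt5b (ENSMUSG00000030170) spans chromosome 6 from 119432531 to 119544347 on the minus strand (GRCm38), and none of its exons overlaps those of another annotated gene. Its nearest protein-coding neighbours in the table, Adipor2 and Erc1, had log2 ratios of -0.145 and 0.229 and did not pass (adjusted p = 0.479 and 0.176 per the authors' deposited table).

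Wnt2b, a canonical ligand, had an authors' mean of 67 reads in pregnant and 133 reads in nonpregnant islets. It fell by 0.94 on the log2 scale, with an adjusted p of 0.0427 per the authors' deposited table that is close to the threshold. Wnt2b (ENSMUSG00000027840) spans chromosome 3 from 104945272 to 104961921 on the minus strand, and its level was 0.182 and 0.375 RPKM. Its neighbours St7l and Cttnbp2nl had log2 ratios of -0.046 and 0.113 and did not pass per the authors' deposited table.

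The remaining ligands did not pass. Wnt9a had 134 reads in pregnant and 90 reads in nonpregnant islets, a log2 ratio of 0.61 with an unadjusted p of 0.017 and an adjusted p of 0.108 per the authors' deposited table. Wnt5a, the close relative of Wnt5b and the best known ligand of the branch without beta-catenin, had 58 and 88 reads, and its ratio of 0.68 had the other sign (adjusted p = 0.29 per the authors' deposited table). Whether Wnt5a and Wnt5b differ in their change was not tested. The other 11 ligand genes (Wnt2, Wnt3, Wnt6, Wnt7a, Wnt7b, Wnt8b, Wnt9b, Wnt10a, Wnt10b, Wnt11 and Wnt16) had under 10 mean reads over both groups, at 0 to 11 reads in pregnant and 0 to 9 reads in nonpregnant islets. At this depth a change in them was hardly detectable: of all 4258 genes under 10 mean reads, 0.329% passed per the authors' deposited table. Wnt10b had 4 reads in pregnant islets and is listed at 0 in nonpregnant islets, and Wnt2 and Wnt8b are listed at 0 in pregnant islets with 1 read each in nonpregnant islets.

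Before secretion all Wnt proteins need PORCN, which attaches their lipid, and the carrier protein WLS. Porcn had 913 reads in pregnant and 896 reads in nonpregnant islets (ratio 1.04, adjusted p = 0.928 per the authors' deposited table). Wls, which the symbols above do not cover, had 21841 and 22125 reads (ratio 1.01, adjusted p = 0.997 per the authors' deposited table). Neither passed the test.

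The RefSeq promoter windows of 3 of the 4 changed genes are shown so that the start regions of the changed genes can be read. Each window covers 250 bases before to 50 after a transcription start of GRCm38.p6 and is written 5′ to 3′ on the gene's strand, with motif matches in capitals. The motifs searched on both strands were the TCF/LEF sites CTTTGAA and CTTTGAT and the palindrome TTCNNNGAA bound by STAT factors, which act below the prolactin receptor. Wnt5b has 3 windows: the one farthest upstream, at chr6:119544298-119544597, holds none of these motifs, and the other two hold 1 each.
Wnt5b, start at 119544347, chr6:119544298-119544597, minus strand: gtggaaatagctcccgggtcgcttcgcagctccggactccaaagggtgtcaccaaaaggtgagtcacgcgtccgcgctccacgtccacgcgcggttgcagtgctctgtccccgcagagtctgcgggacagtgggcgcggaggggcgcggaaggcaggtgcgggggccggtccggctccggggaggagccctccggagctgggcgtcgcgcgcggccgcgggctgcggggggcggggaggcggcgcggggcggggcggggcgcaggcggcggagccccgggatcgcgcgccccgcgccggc
Wnt5b, start at 119467211, chr6:119467162-119467461, minus strand: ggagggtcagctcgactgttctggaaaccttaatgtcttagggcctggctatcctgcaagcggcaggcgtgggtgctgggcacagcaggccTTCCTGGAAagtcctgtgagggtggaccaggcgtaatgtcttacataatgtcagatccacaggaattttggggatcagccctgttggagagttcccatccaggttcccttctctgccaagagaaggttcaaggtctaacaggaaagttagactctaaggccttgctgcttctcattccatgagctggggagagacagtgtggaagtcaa
Wnt5b, start at 119449386, chr6:119449337-119449636, minus strand: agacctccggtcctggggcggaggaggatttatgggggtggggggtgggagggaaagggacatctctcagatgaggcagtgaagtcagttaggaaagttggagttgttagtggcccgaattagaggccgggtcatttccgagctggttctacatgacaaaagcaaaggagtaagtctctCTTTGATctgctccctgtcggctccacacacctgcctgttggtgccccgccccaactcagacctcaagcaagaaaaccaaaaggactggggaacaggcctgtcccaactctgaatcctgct
Rspo4, start at 151842927, chr2:151842677-151842976, plus strand: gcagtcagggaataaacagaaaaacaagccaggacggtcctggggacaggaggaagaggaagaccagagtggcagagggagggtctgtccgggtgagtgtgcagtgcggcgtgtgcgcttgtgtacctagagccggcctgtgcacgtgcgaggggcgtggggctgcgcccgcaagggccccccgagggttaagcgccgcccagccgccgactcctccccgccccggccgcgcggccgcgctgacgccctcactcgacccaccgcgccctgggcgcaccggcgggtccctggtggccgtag
Wnt2b, start at 104961709, chr3:104961660-104961959, minus strand: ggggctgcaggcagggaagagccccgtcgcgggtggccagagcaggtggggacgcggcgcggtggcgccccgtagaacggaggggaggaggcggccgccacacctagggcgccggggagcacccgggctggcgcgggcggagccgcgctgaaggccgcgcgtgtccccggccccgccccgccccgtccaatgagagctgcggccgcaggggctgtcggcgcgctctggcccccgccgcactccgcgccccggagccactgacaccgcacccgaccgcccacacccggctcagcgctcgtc

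In the capitals, the STAT palindrome lies at -159 to -151 from the Wnt5b start at 119467211, and CTTTGAT lies at -71 to -65 from the start at 119449386. The farthest upstream window of Wnt5b and the windows of Rspo4 and Wnt2b hold no match and have 47, 31 and 43 CpG, against 4 and 7 in the other Wnt5b windows and a median of 7 over all 32851 windows of the table. Of all windows, 8.65% hold a TCF/LEF match and 8.3% a STAT match. Windows were listed for 35 of the 54 Wnt genes, and 3 of their 45 windows (6.67%) hold a TCF/LEF match, in Dkk1, Wnt11 and Wnt5b. The STAT palindrome stands in 1 of the 45 windows (2.22%). These matches describe letters and do not show binding, and which Wnt5b start the islets use cannot be read from counts per gene.

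Among the 10 Frizzled genes, which encode the Wnt receptors, only Fzd6 passed, beside 11.7% of all genes. A count of 1 of 10 is near that share and is no result about the receptors as a group. Fzd6, a receptor known for hair and tissue polarity in mice, had an authors' mean of 1607 reads in pregnant and 1188 reads in nonpregnant islets. It rose by 0.47 on the log2 scale per the authors' deposited table (adjusted p = 0.00181). Fzd6 (ENSMUSG00000022297) spans chromosome 15 from 39006034 to 39038188 on the plus strand, and 152 bases of its exons overlap Gm26704 on the opposite strand, so part of its reads is uncertain where counting ignored strand. Its neighbours Baalc and Cthrc1 did not pass (adjusted p = 0.969 and 0.183 per the authors' deposited table). Cthrc1 had a log2 ratio of 0.845, and Baalc had only 3 and 2 reads.

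Per length, Fzd6, Fzd3 and Fzd7 were the most abundant receptors in both groups. Their levels were 3.81, 2.66 and 2.54 RPKM in pregnant islets and 2.92, 2.87 and 2.83 in nonpregnant islets. The share of Fzd6 in the summed Frizzled level was 29.7% in pregnant and 23.2% in nonpregnant islets. Per length it was the highest of the 10 in both means, by little in nonpregnant islets, while by mean reads Fzd3 was the highest in both. Both shares rest on a single mean in each group and carry no error.

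The other 9 Frizzled genes did not pass. Fzd5 had 555 reads in pregnant and 451 reads in nonpregnant islets, a log2 ratio of 0.33 with an unadjusted p of 0.0255 and an adjusted p of 0.142 per the authors' deposited table. Its exons share 1233 bases with Gm38058 on the opposite strand. Fzd3, a receptor of axon guidance, had 2985 and 3105 reads, and Fzd7 had 1009 and 1085 reads, with ratios of 0.98 and 0.95 per the authors' deposited table. Fzd4, the receptor of the ligand norrin in blood vessels, had 486 and 499 reads, and Fzd8 had 801 and 820 reads, both at a ratio of 1 per the authors' deposited table. Fzd1 had 162 and 219 reads (ratio 0.76, adjusted p = 0.237 per the authors' deposited table). Fzd2 had 12 and 19 reads, Fzd9 7 and 5, and Fzd10 1 read in pregnant islets while listed at 0 in nonpregnant islets.

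The LRP co-receptors, which canonical signalling needs, did not pass. Lrp5 had 4333 reads in pregnant and 3938 reads in nonpregnant islets (ratio 1.13, adjusted p = 0.695 per the authors' deposited table). Lrp6 had 8789 and 9520 reads (ratio 0.95, adjusted p = 0.8 per the authors' deposited table). Their levels were 5.08 and 7.33 RPKM in pregnant islets and 4.79 and 8.24 in nonpregnant islets, so Lrp6 stood above Lrp5 in both groups.

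**Figure D2:**
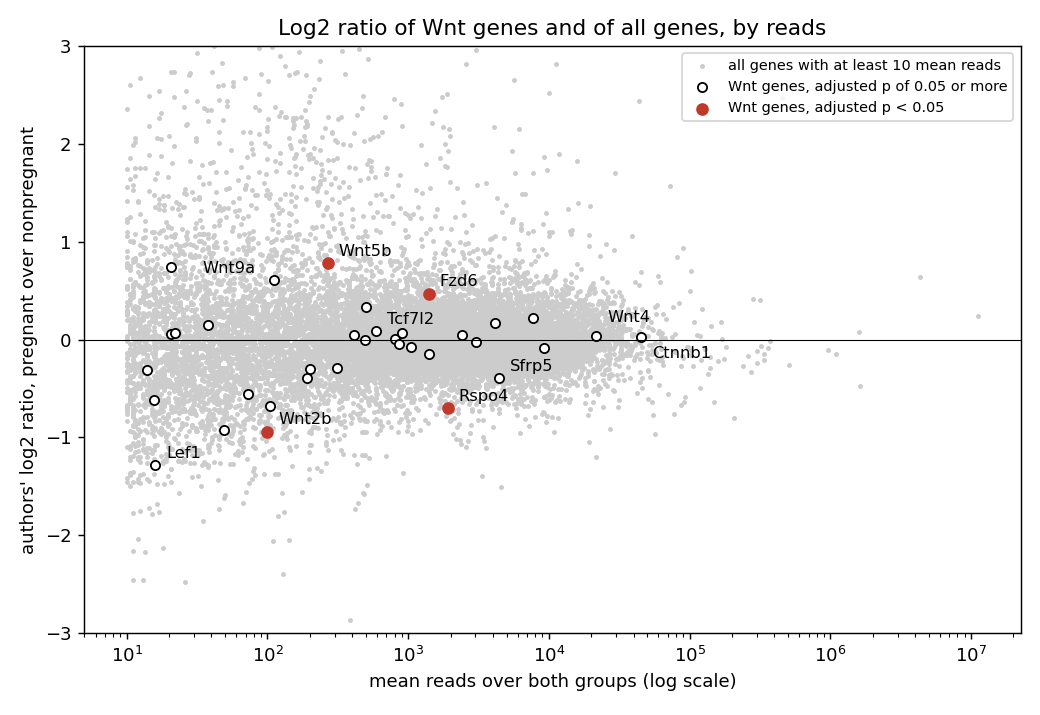
Authors' log2 ratio of pregnant over nonpregnant islets against the mean reads over both groups on a log axis, for all genes with at least 10 mean reads (grey) and the 35 Wnt genes among them (open circles, or filled red with an adjusted p under 0.05). Rspo4 and Wnt2b lie at -0.70 and -0.94, Fzd6 and Wnt5b at 0.47 and 0.78, and Wnt4 and Ctnnb1 sit near 0 at the right. Some grey genes lie beyond the plotted range of 3 log2 units.

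Rspo4 had the smallest p of the Wnt genes. R-spondin 4, which strengthens Wnt signals through LGR receptors and is known in humans for its part in nail growth, had an authors' mean of 1439 reads in pregnant and 2390 reads in nonpregnant islets. It fell by 0.70 on the log2 scale per the authors' deposited table (adjusted p = 9.46e-08). Rspo4 (ENSMUSG00000032852) spans chromosome 2 from 151842927 to 151874668 on the plus strand, and none of its exons overlaps those of another annotated gene. Its neighbours Psmf1 and Angpt4 did not pass, with log2 ratios of -0.053 and -1.104 per the authors' deposited table, and Angpt4 had only 1 and 3 reads.

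Rspo4 made up nearly the whole R-spondin level, at 99.2% in pregnant and 99.4% in nonpregnant islets. Its level was 6.92 and 11.9 RPKM. Rspo2 had 21 reads in pregnant and 20 reads in nonpregnant islets, and Rspo1 and Rspo3 had 1 and 3 reads each, with no call. Beside the lower Rspo4 value, marker genes of alpha cells (0 higher and 5 lower of 10) and of delta and PP cells (0 higher and 3 lower of 8) also had lower members per the authors' deposited table, beside 4.15% of all genes lower. Their part in the Rspo4 result was not tested.

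The receptors and ligases that R-spondins act on did not pass. Lgr4 had 2420 reads in pregnant and 2398 reads in nonpregnant islets (ratio 1.03, adjusted p = 0.942 per the authors' deposited table) and made up 98.2% and 98.6% of the summed Lgr level. Lgr5, the stem cell marker of the gut, had 39 and 36 reads, and Lgr6 had 26 and 15 reads, at ratios of 1.11 and 1.67 (adjusted p = 0.98 and 0.5 per the authors' deposited table). Znrf3 had 1325 and 1505 reads and Rnf43 178 and 225 reads, at ratios of 0.9 and 0.81 (adjusted p = 0.58 and 0.435 per the authors' deposited table). Both ligases are themselves known targets of beta-catenin.

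Secreted inhibitors were led by Sfrp5, whose product binds Wnt ligands outside the cell. Sfrp5 had an authors' mean of 3753 reads in pregnant and 5059 reads in nonpregnant islets, and a level of 22.5 and 31.5 RPKM. Its log2 ratio of -0.40 had an unadjusted p of 0.00875 but missed the threshold after adjustment (adjusted p = 0.0668 per the authors' deposited table). Among the 5 genes Sfrp1, Sfrp2, Sfrp4, Sfrp5 and Wif1, it made up 99.1% of the summed level in pregnant and 99.0% in nonpregnant islets. Frzb, a secreted Frizzled-related protein that its symbol keeps out of this set, was more abundant still, with 25511 and 28993 reads and a level of 89.9 and 106 RPKM. Frzb did not pass (ratio 0.9, adjusted p = 0.478 per the authors' deposited table).

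The other inhibitors were low. Sfrp1 had 33 reads in pregnant and 65 reads in nonpregnant islets (ratio 0.53, adjusted p = 0.371 per the authors' deposited table), Sfrp2 12 and 16, Sfrp4 2 and 8, and Wif1 10 and 5. Of the Dickkopf genes, whose DKK1 and DKK2 products bind LRP5 and LRP6, Dkk2 had 276 and 345 reads (ratio 0.82, adjusted p = 0.496 per the authors' deposited table). Dkk3 had 79 and 131 reads (ratio 0.63, adjusted p = 0.631 per the authors' deposited table), and Dkk1 and Dkk4 had 0 to 2 reads. No inhibitor gene passed the test in either direction, beside 11.7% of all genes. With so few genes, and with Sfrp4, Wif1, Dkk1 and Dkk4 under 10 mean reads, this is no result about the inhibitors as a group.

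**Figure D3:**
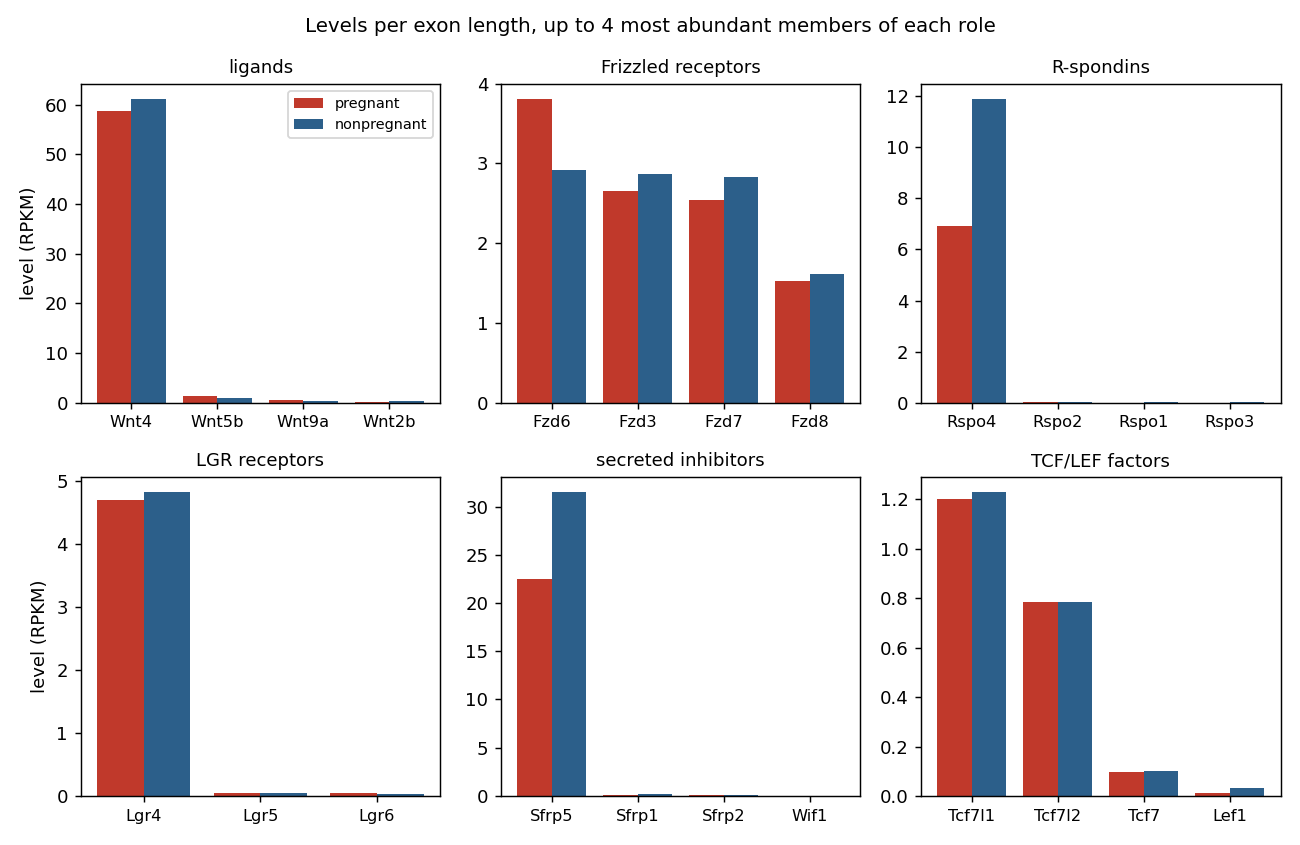
Level per exon length, in RPKM, of up to 4 members of 6 roles in pregnant (red, left) and nonpregnant (blue, right) islets. Bars are 1 group mean each with no error. Single genes (Wnt4, Rspo4, Lgr4, Sfrp5) make up nearly the whole level of their role, while the Frizzled level is spread over several genes.

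The effectors inside the cell did not pass. Ctnnb1, the gene of beta-catenin, which also joins cadherins to the cytoskeleton, had an authors' mean of 45317 reads in pregnant and 45506 reads in nonpregnant islets (ratio 1.02, adjusted p = 0.98 per the authors' deposited table). Its exons share 759 bases with Ulk4 on the opposite strand. Axin1, a scaffold of the destruction complex, had 8153 and 7169 reads, a log2 ratio of 0.22 with an unadjusted p of 0.0341 and an adjusted p of 0.176 per the authors' deposited table. Axin2, its relative that beta-catenin induces as a feedback inhibitor and that is widely used as a readout of canonical signalling, had 843 and 889 reads (ratio 0.97, adjusted p = 0.98 per the authors' deposited table).

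The DNA-binding partners of beta-catenin were led by Tcf7l1 and Tcf7l2. Tcf7l1 had 414 reads in pregnant and 409 reads in nonpregnant islets, and Tcf7l2 had 603 and 582 reads, with ratios of 1.04 and 1.06 (adjusted p = 0.98 and 0.875 per the authors' deposited table). Per length Tcf7l1 stood above Tcf7l2, at 1.2 against 0.784 RPKM in pregnant islets and 1.23 against 0.785 in nonpregnant islets. Lef1 had 9 and 23 reads, a log2 ratio of -1.28 with an unadjusted p of 0.0413 and an adjusted p of 0.2 per the authors' deposited table, and 1208 bases of its exons overlap Gm43352 on the opposite strand. Tcf7 had 22 reads in both groups.

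How small a change could pass depended on the reads. Of the 54 Wnt genes, 12 had at least 1000 mean reads over both groups and 2 of these passed, beside 16.2% of all such genes per the authors' deposited table. Among 14 with 100 to 1000 mean reads 2 passed, beside 17.6% of all genes. Among 9 with 10 to 100 mean reads 0 passed, beside 6.6%, and 1 of the 9 had an unadjusted p under 0.05 by the authors' test, the only one run. The genes that passed had a median size of the log2 ratio of 0.44 at 1000 reads or more, 0.81 at 100 to 1000 and 1.81 at 10 to 100 per the authors' deposited table. The 5th percentiles of that size were 0.31, 0.44 and 0.92. Of the 9 genes with 10 to 100 mean reads, Lef1 (-1.28) and Sfrp1 (-0.925) reached the last of these sizes without passing. The values for Lgr5, Lgr6, Sfrp2, Rspo2, Tcf7, Fzd2 and Wnt5a were smaller and say little on whether they changed.

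Over the 35 Wnt genes with at least 10 mean reads, the median log2 ratio was -0.003, against -0.014 over all 15682 such genes per the authors' deposited table. The median size of the log2 ratio regardless of sign was 0.221 for the Wnt genes and 0.195 for all genes. The log2 ratio was above 0 in 17 of the 35 and below 0 in 18, and within 0.1 of 0 in 14. At an unadjusted p under 0.05 stood 9 of the 54, or 16.7%, beside 22.2% of all genes per the authors' deposited table. All 9 were among the 35 with at least 10 mean reads, of which they are 25.7%. The share of all genes with at least 10 mean reads at that p was not counted. The authors' means summed to 108898 reads in pregnant and 110815 reads in nonpregnant islets over the 54 genes. With scaling to total mean reads all genes shifted by nearly the same amount (median -0.088), so ratios as close to 1 as those of Wnt4, Ctnnb1, Tcf7l2, Lgr4 and Porcn have no settled direction.

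Other parts of the pathway were counted from lists compiled from general knowledge. Of 19 genes of the destruction complex and Dishevelled, 1 rose and 0 fell, or 5.26% beside 11.7% of all genes. This was Csnk1g2, a casein kinase, at 9858 reads in pregnant and 8224 reads in nonpregnant islets (adjusted p = 0.0415 per the authors' deposited table). Gsk3b, the kinase that marks beta-catenin, had 10080 and 10352 reads and Apc had 10738 and 10447 reads, at ratios of 1 and 1.05 per the authors' deposited table. The list median log2 ratio was -0.004.

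Of 19 genes listed for Wnt secretion and extracellular control, 1 rose and 1 fell, or 10.5% beside 11.7% of all genes. Gpc6, a heparan sulfate proteoglycan of the cell surface, rose 1.95-fold, with 414 reads in pregnant and 217 reads in nonpregnant islets (adjusted p = 1.19e-06 per the authors' deposited table). Tfrc, the transferrin receptor, whose main role is iron uptake, fell to 0.79 (adjusted p = 0.0145 per the authors' deposited table). Its place in this list is doubtful, and it was the only listed gene that fell. Of 20 genes of receptors without beta-catenin and of planar cell polarity, 0 rose and 0 fell by the authors' test, beside the same 11.7%. At an unadjusted p under 0.05 by that test stood 4 of the 20, beside 22.2% of all genes. That count is near the share of all genes and is no result about this branch. These 4, named after their values were seen, were Ror1, Scrib, Celsr3 and Celsr1, at ratios of 0.6, 0.82, 0.75 and 1.29 (adjusted p = 0.0518 to 0.0688 per the authors' deposited table). Ror1, a receptor for Wnt5a, had 455 reads in pregnant and 771 reads in nonpregnant islets.

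Among 23 entries for nuclear cofactors of beta-catenin, of which Cdc73 stands under 2 gene IDs, 1 rose and 2 fell, or 13.0% beside 11.7% of all genes. Pygo2, which links beta-catenin to chromatin, fell to 0.73 (2945 reads in pregnant and 4159 in nonpregnant islets, adjusted p = 0.000499 per the authors' deposited table). The acetyltransferase gene Crebbp fell to 0.81 and the kinase gene Hipk2 rose 1.24-fold (adjusted p = 0.0326 and 0.0253 per the authors' deposited table). The other cofactors, among them Bcl9 and the corepressor genes Tle1 to Tle4, did not pass.

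Among 23 genes listed as targets of beta-catenin in other tissues, 3 rose and 0 fell. The list median log2 ratio was -0.17 over all 23 and -0.13 over the 18 with at least 10 mean reads. Over all genes of the table with at least 10 mean reads the median was -0.014. The 3 were Tnfrsf11b (osteoprotegerin), Birc5 (survivin) and Myc, at 7.76-fold, 5.37-fold and 3.21-fold per the authors' deposited table. Birc5 also stands in the cell division list, in which 12 of 12 genes rose per the authors' deposited table. The 3 are 13.0% of the list, near the 11.7% of all genes, so the count is no result about these targets. The cyclin gene Ccnd1 had 12960 reads in pregnant and 13426 reads in nonpregnant islets (ratio 0.99 per the authors' deposited table). The feedback gene Nkd1 had 17 reads in both groups and did not pass (ratio 1.02 per the authors' deposited table). At 10 to 100 mean reads 6.6% of all genes passed. Sp5, also a feedback gene, had 1 read in both groups, where a change was hardly detectable.

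The islet label was checked against marker genes. All 10 beta cell markers were measured and took 22.2% of mean reads in pregnant and 18.9% in nonpregnant islets. Of these 10, Ins1 and G6pc2 rose and Slc30a8 fell per the authors' deposited table. Acinar markers of the exocrine pancreas rose in 14 of 16 genes per the authors' deposited table, and their share of mean reads was 1.32% and 0.112%. Amy2a5, at 18 reads in pregnant islets and listed at 0 in nonpregnant islets, did not pass. Nor did Bhlha15, whose ratio had the other sign, with 8551 reads in pregnant and 9570 reads in nonpregnant islets (ratio 0.91, adjusted p = 0.768 per the authors' deposited table). Among the other markers, 2 rose and 1 fell of 14 for duct cells, 1 rose and 0 fell of 15 for stellate cells and fibroblasts, 0 rose and 1 fell of 12 for endothelial cells, 1 rose and 0 fell of 12 for macrophages, and 1 rose and 0 fell of 8 for Schwann and neuronal cells per the authors' deposited table. Of all genes 11.7% passed, 7.57% higher and 4.15% lower. For duct cells the share was 21.4%, above that of all genes, with Epcam and Muc1 higher and Prom1 lower. For stellate cells and fibroblasts, endothelial cells, macrophages, and Schwann and neuronal cells the shares were 6.67%, 8.33%, 8.33% and 12.5%. These last 4 shares are below or near the share of all genes, so those counts are no result about those cells. The part of any of the cell types in the changes of Wnt5b, Fzd6 and Wnt2b was not tested. Over all genes the sum of the means was 87654449 reads for pregnant and 84493872 reads for nonpregnant islets.

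**Figure D4:**
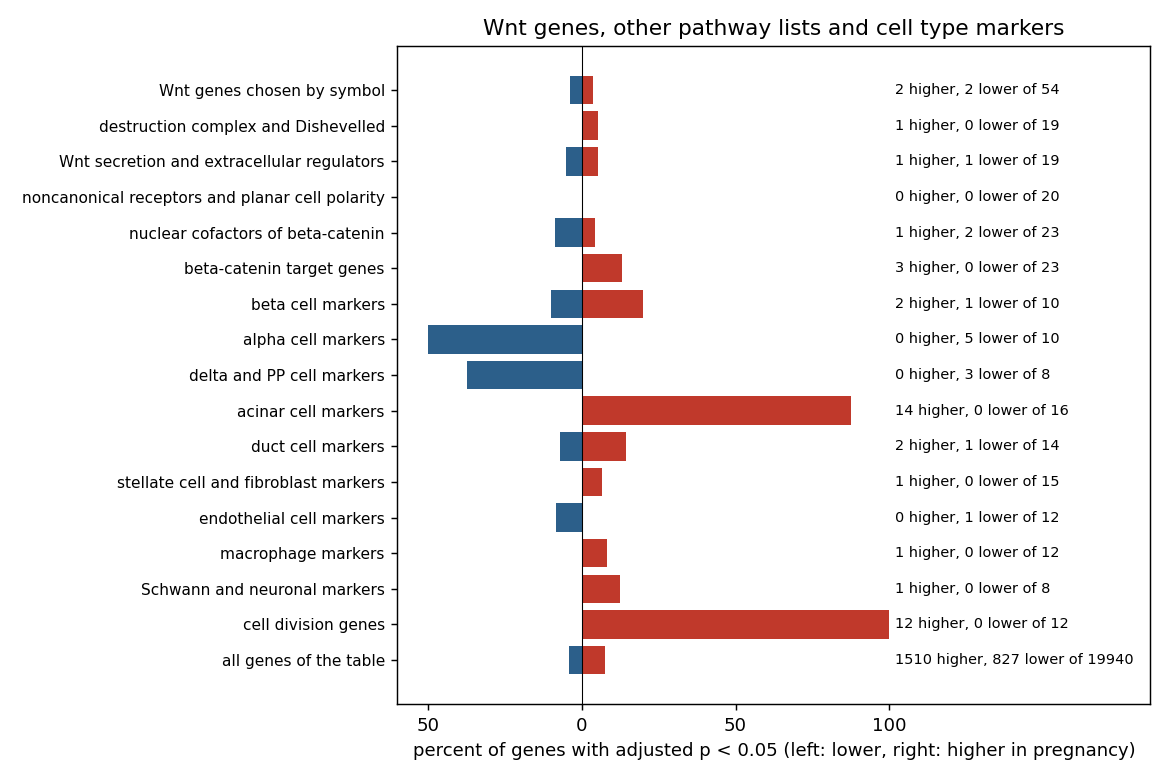
Percent of genes with an adjusted p under 0.05 that were lower (blue, left of 0) or higher (red, right of 0) in pregnant islets, for the 54 Wnt genes, other pathway lists, cell type markers and all 19940 genes. The counts stand at the right, with 2 higher and 2 lower for the Wnt genes and 14 higher and 0 lower for the acinar markers.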

How the data were processed

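RNA of pancreatic islets from 3 pregnant and 3 nonpregnant mouse samples was sequenced from a TruSeq library. TopHat2 2.0.12, TopHat, Bowtie, HTSeq 0.5.3p3 and the build GRCm38 are named, per the submitters' processing notes. The strand setting, the scaling of libraries and the tool behind the test are not given in the sources used here. The authors deposited 1 rounded mean read count per gene and group, used here as a score because it is neither a count of 1 library nor scaled to library size by any stated rule. The fold change deposited by the authors is a ratio of pregnant over nonpregnant, and its log2 was deposited too. It is not exactly the ratio of the 2 printed means. Over 10102 genes with many reads the deposited log2 ratio lay a median of 0.035 above that of the means, a factor of 1.02. A deposited ratio can therefore stand slightly above 1 where the pregnant mean is the lower, as for Wnt4 and Ctnnb1. The deposited p-value and adjusted p-value (FDR) are the authors' own. Nothing says that the samples are separate animals, so these p-values may measure technical spread.

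Of 19963 lines, repeats of 21 genes were dropped, which left 19940 genes. Benjamini-Hochberg adjustment of the p-values came within 0.00203 of the FDR column. For the 4258 genes with fewer than 10 mean reads, adding a pseudocount of 1 gave the deposited log2 ratio in 100% within rounding of the means and a tolerance of 0.005. A pseudocount of 0.5 did so in 97.6%, 2 in 71.8% and none in 87.3%. Rounding leaves wide limits at such means, so the pseudocount is not settled, and folds of low genes may be understated. Levels per length (RPKM) were computed with merged exons of GENCODE M21 (GRCm38), which held all 54 members and 96.6% of genes. A gene was called at a deposited adjusted p under 0.05. All called members, all with an unadjusted p under 0.05, the 3 most abundant of each role, a fixed set and up to 4 called genes per other list were named, and the remaining members were added with their values so that each is accounted for. The other pathway genes without a call were chosen after their values were seen. Members and lists were chosen with earlier results of these data known. Promoter windows came from the RefSeq table of GRCm38.p6. The adjustment was tested on simulated data. Python 3.11.15 with pandas 2.3.3, numpy 2.4.6, scipy 1.17.1 and matplotlib 3.10.9 was used.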

Additional observations from a re-analysis of the deposited data

How the results depend on the processing

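No paired analysis was possible because the table holds 1 mean per group, and for the same reason no replicate could be left out. Wnt5b, Fzd6 and Rspo4 passed at each adjusted p threshold tried (0.01, 0.05 and 0.1) and with the adjustment recomputed over genes with at least 10 or at least 50 mean reads. Wnt2b did not pass at 0.01, which left 1 Wnt gene lower, and Sfrp5 also passed at 0.1 and over genes with at least 50 mean reads. In the other pathway lists 9 genes passed, against 5 at 0.01 and 16 at 0.1. Over genes with at least 10 mean reads 13 passed and over those with at least 50 mean reads 15, where fewer genes are adjusted for. The share of all genes passing was not counted at these other settings, so the counts are no result about the lists. The median log2 ratio of the Wnt genes was -0.056 with no filter on low reads, which adds 19 genes, and -0.091 with scaling to total mean reads, beside -0.103 for all genes. Of 99 values of named members under another scaling or pseudocount, 83 stayed within the counting interval of the mean reads and 16 left it. That interval covers counting error only. Scaling to total mean reads shifted all genes by nearly the same amount, so it could not turn the sign of a called member. The share of Wnt4 in the ligand level was 95.8% with the longest transcript as length, an alternative chosen after seeing the data. Depth limits the 19 Wnt genes under 10 mean reads most.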

Other observations

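Sostdc1, which encodes a secreted protein that binds LRP6 and BMP ligands, had 80 reads in pregnant and 17 reads in nonpregnant islets. Its ratio of 4.72 did not pass (adjusted p = 0.113 per the authors' deposited table). Ngfr, the neurotrophin receptor gene p75 that stood among the Schwann and neuronal markers, had 1426 reads in pregnant and 137 reads in nonpregnant islets and rose by 3.41 on the log2 scale per the authors' deposited table (adjusted p = 8.86e-08). The Schwann cell gene Sox10 from the same marker list had 10 and 31 reads and did not pass (adjusted p = 0.0713 per the authors' deposited table). The 3 genes were chosen after their values were seen.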
